A study of Saccharomyces cerevisiae with 12 samples.

Results

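The 80 snoRNA and snRNA genes of budding yeast (Saccharomyces cerevisiae) were taken as every identifier in the deposited expression table that begins with snR or SNR followed by a digit, which gave 80 of 6825 identifiers. They comprise 47 C/D box small nucleolar RNAs (snoRNAs), 29 H/ACA box snoRNAs and 4 RNAs of the spliceosome (snRNAs). The short form of U5, snR7-S, was not analysed here.

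SnoRNAs act in the nucleolus as guides: by base pairing with ribosomal RNA, C/D box members direct methylation of the ribose 2'-hydroxyl by Nop1 and H/ACA box members direct conversion of uridine to pseudouridine by Cbf5. A few members are instead needed for cleavage of the ribosomal RNA precursor, among them the U3 RNA encoded by snR17a and snR17b, U14 (snR128), snR30 and snR10. Mature snoRNAs end without a poly(A) tail. Short tails are added to their precursors in the nucleus during trimming and decay, so a library made from polyadenylated RNA may hold tailed forms and reads from a host transcript rather than the mature RNAs.

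The series asked what the DNA-binding protein Euc1 does to transcription, and compared strains in a pair of experiments with 3 samples in each of 4 groups. The overexpression experiment used W303 cells (MATa, RAD5) that lacked the resident EUC1 gene (ymr111c::natNT2) in both groups. The pGAL-EUC1 strain carried an integrated EUC1 under the galactose-inducible GAL promoter (YIplac211-pGAL-EUC1::URA3), and the pEUC1-EUC1 control carried EUC1 under its own promoter (YIplac211-pEUC1-EUC1::URA3). Both were grown in raffinose medium and given 2% galactose for 3 h. The deletion experiment used DF5 cells in log phase in glucose medium, the euc1∆ strain (ymr111c::natNT2) and WT, and both of these strains carried an added copy of MED11 (YIplac211-MED11::URA3). The labels do not say that replicates came from separate cultures, so p-values measure only the spread between these samples, which may be technical.

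Poly(A)-selected RNA was sequenced, and each gene's level was given in TPM, a unit of transcript abundance scaled to transcript length and to the total of the sample. The 12 libraries held 4764919 to 10364880 reads on genes with a known length, and the 80 genes took 0.138% to 0.253% of all TPM. EUC1 had 1985, 1942 and 2035 TPM in pGAL-EUC1 and 50.6, 30.8 and 31.6 TPM in the pEUC1-EUC1 control, and it had 0, 0 and 0.09 TPM in euc1∆ and 9.56, 16.0 and 13.02 TPM in WT. MED11 had 26.4 to 27.4 TPM in pGAL-EUC1, 28.1 to 34.9 TPM in the pEUC1-EUC1 control, 35.9 to 48.4 TPM in euc1∆ and 62.0 to 65.6 TPM in WT, and URA3, the plasmid marker, lay between 198 and 367 TPM in all 12 samples. WT replicate 3 stood apart for the genes described here, with 333 RPM summed over them (RPM, reads per 1000000 reads of the library), against 476 RPM in WT replicate 1 and 431 RPM in WT replicate 2. On the high side euc1∆ replicate 2 stood apart, with 415 RPM against 312 RPM in euc1∆ replicate 1 and 331 RPM in euc1∆ replicate 3. All 285 tRNA identifiers summed to 0 TPM in every sample. In whole cultures, fewer cells with a transcript and less RNA per cell cannot be told apart.

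The class of a snoRNA is written in short sequence boxes, and the length of the gene set how well it could be measured. Of the 47 C/D genes, 40 held the C box letters TGATGA on the gene strand, in 36 of them starting within the first 21 bases. All 47 held the D box letters CTGA, ending within 20 bases of the end of the gene in 45. A match far from the ends need not be a box, as for CTGA in snR57 and snR41, 50 and 47 bases from the end. The pair snR39 and snR59 is shown because the 2 guides lie in introns of the paralogous ribosomal protein genes RPL7A and RPL7B and yet only snR39 gave values. The sequences are from RefSeq R64, 5′ to 3′, with the C box and the D box in capitals; snR39 lies at chrVII:365163-365251 on the minus strand and snR59 at chrXVI:173827-173904 on the plus strand.
snR39: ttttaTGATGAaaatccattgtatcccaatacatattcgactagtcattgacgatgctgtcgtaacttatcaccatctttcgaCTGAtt
snR59: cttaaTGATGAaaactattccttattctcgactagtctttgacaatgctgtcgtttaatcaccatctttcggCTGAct
In a pairwise alignment 66 of 78 aligned bases were identical (84.6%). The 78 bases of snR59 are shorter than a read, so no read could be placed on it and it was at 0 TPM in all 12 samples. The 89 bases of snR39 hold a read at few positions. snR39 had 76.1, 29.5 and 65.6 TPM in pGAL-EUC1, 46.5, 93.8 and 60.2 TPM in the pEUC1-EUC1 control, 108, 60.9 and 18.5 TPM in euc1∆ and 50.8, 95.9 and 59.0 TPM in WT. The groups overlapped throughout, and all these values together rest on 43 reads.

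The low values came in steps of whole reads, which gave back the number of reads behind each level. RSEM divides by the number of positions at which a read can start, and subtracting 83 bases from the gene length made 100% of the 310 low values used for this check whole within 0.05 reads. The best other subtraction, 82 bases, made 39.7% whole. This places the reads at 84 bases, whereas the methods give 75. Of 484 values of the members above 0 and up to 20 reads, 99.6% were whole within 0.1 reads, and the 2 that were not belonged to snR7-L. The 80 genes run from 78 to 1004 bases (median 98 for C/D, 204 for H/ACA), and 31 of them offer at most 20 start positions.

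Most C/D members were therefore seen through a handful of reads. Over 12 samples the members took 26438 reads, 79.1% of them on H/ACA genes, 17.1% on C/D genes and 3.76% on snRNAs. snR86, the longest member at 1004 bases and a guide for pseudouridine in the large ribosomal subunit, held 24.98% of these reads, and with snR44 (8.42%), snR30 (6.28%), snR84 (5.03%) and snR4 (3.46%) it made up 48.2%. A mean of at least 10 reads per sample was reached by 34 members: 24 of 29 H/ACA genes, 9 of 47 C/D genes and 1 of 4 snRNAs. Of the 960 single values, 183 were at 0 and 291 stood on 1 to 5 reads.

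**Figure D1:**
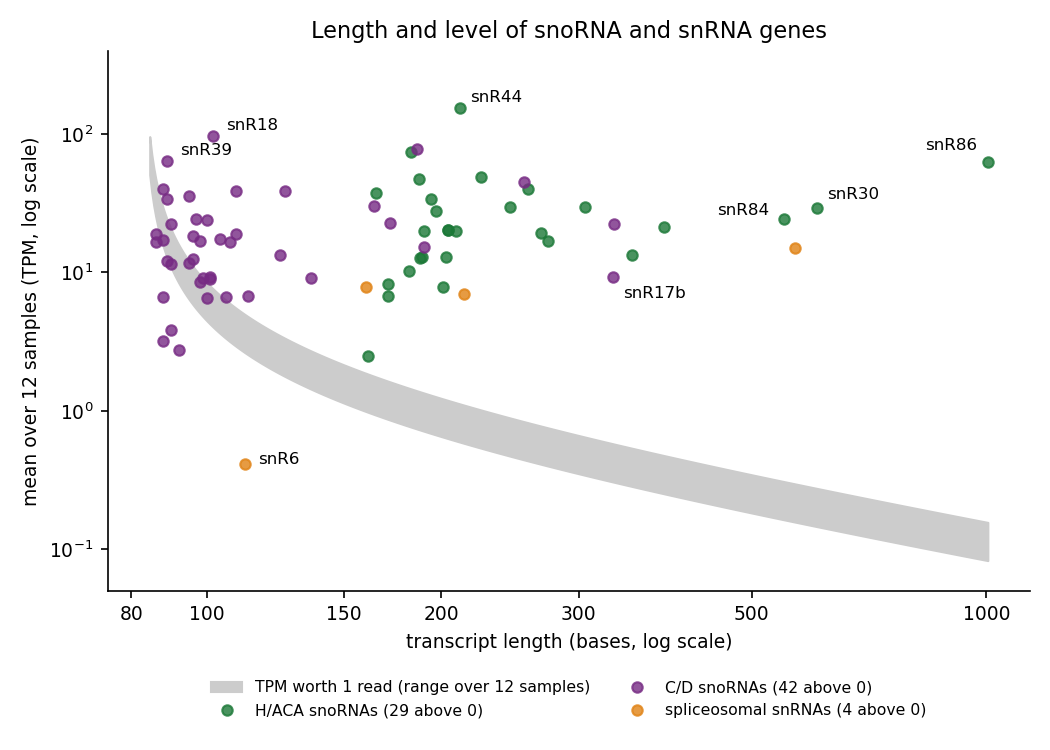
Mean level over 12 samples in TPM (log scale) against transcript length in bases (log scale), 1 point for each of the 75 genes above 0, green for H/ACA snoRNAs, purple for C/D snoRNAs and orange for snRNAs; the grey band is the TPM that a single read is worth in the 12 libraries. Many C/D genes of about 100 bases lie on or near the band, while snR86 at 1004 bases lies far above it.

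No read fell in any library on 5 genes, and their 0 values are bounded only where a read could be placed. These were snR53, snR59, snR67, snR78 and snR79, all C/D guides for methylation of ribosomal RNA. snR59 and snR67 are too short for a read. With a limit of 3 reads per library, a count of 0 allows up to 28.6 to 53.9 TPM for snR53, 57.1 to 108 TPM for snR78 and 228 to 431 TPM for snR79. Such limits cover counting error only. Another 27 members were at 0 in some samples and 48 were above 0 in all 12.

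Replicates differed about as much as read counting alone allows where reads were few. The SD of log2(TPM + 1) within groups had a median of 1.85 over the 23 members with a mean under 2 reads, 0.81 over the 18 with 2 to 10 reads, 0.29 over the 21 with 10 to 50 reads and 0.25 over the 13 with at least 50 reads. Against the variance expected of counting, the ratio of chi-square to degrees of freedom had a median of 1.04 in the first of these classes and 2.55 in the last. Fold changes of the rarely read members are therefore given with their reads.

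By TPM the highest member was snR44, an H/ACA guide for pseudouridine in the large subunit that lies in an intron of RPS22B. It had 130, 163 and 115 TPM in pGAL-EUC1, 145, 149 and 190 TPM in the pEUC1-EUC1 control, 160, 156 and 133 TPM in euc1∆ and 155, 183 and 169 TPM in WT. The 4 groups overlapped. The C/D RNA snR18 (U18), in an intron of EFB1, averaged 119 ± 18.9 TPM in pGAL-EUC1, 102 ± 29.9 TPM in the pEUC1-EUC1 control, 78.0 ± 49.8 TPM in euc1∆ and 85.6 ± 20.3 TPM in WT (SD, n = 3 each). The next of the 10 highest means belonged to snR4, a guide for acetylation of 18S ribosomal RNA by Kre33, to snR33, snR39 and snR86, and to snR31, snR9, snR63 and snR57. Neighbours in this order had ranges over the 12 samples that overlapped, and snR57 owed its place to 21 reads.

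The spliceosomal RNAs were low. U1 (snR19) had 11.6, 10.04 and 13.4 TPM in pGAL-EUC1, 12.1, 12.2 and 11.2 TPM in the pEUC1-EUC1 control, 14.2, 22.3 and 18.3 TPM in euc1∆ and 20.7, 21.9 and 13.6 TPM in WT. All galactose values lay below all glucose values. U4 (snR14) stayed between 4.33 and 15.8 TPM over the 12 samples. The long form of U5 (snR7-L) had 9.30, 5.06 and 10.5 TPM in pGAL-EUC1, 6.39, 15.8 and 17.9 TPM in the pEUC1-EUC1 control, 0 TPM in all 3 euc1∆ samples and 2.90, 16.4 and 0 TPM in WT. It overlaps the short U5 gene, 2 of its values up to 20 reads were not whole, and the part of the shared stretch in the 0 values was not tested. U6 (snR6), made by RNA polymerase III, had 1 read in WT replicate 2 (4.96 TPM) and none in the other 11 libraries. At the depths of the 12 libraries, a count of 0 allows 7.88 to 14.9 TPM at a limit of 3 reads.

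Summed over each class, reads differed mainly between the 2 experiments. H/ACA genes took 210 ± 21.8 RPM in pGAL-EUC1 and 217 ± 13 in the pEUC1-EUC1 control, and 271 ± 44.2 in euc1∆ and 315 ± 50.7 in WT (SD, n = 3 each). C/D genes took 37.4 ± 1.40 RPM in pGAL-EUC1 and 37.1 ± 1.93 in the pEUC1-EUC1 control, and 68.8 ± 7.97 in euc1∆ and 83 ± 18.6 in WT. Within an experiment the ranges of the pair overlapped for both classes. Every galactose sample lay below every glucose sample for both classes. For H/ACA genes the margin was narrow, from 235 RPM in a pGAL-EUC1 sample to 238 RPM in a euc1∆ sample. The snRNA sums overlapped, reaching 11.2 RPM in the pEUC1-EUC1 control and starting at 10.1 RPM in WT.

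**Figure D2:**
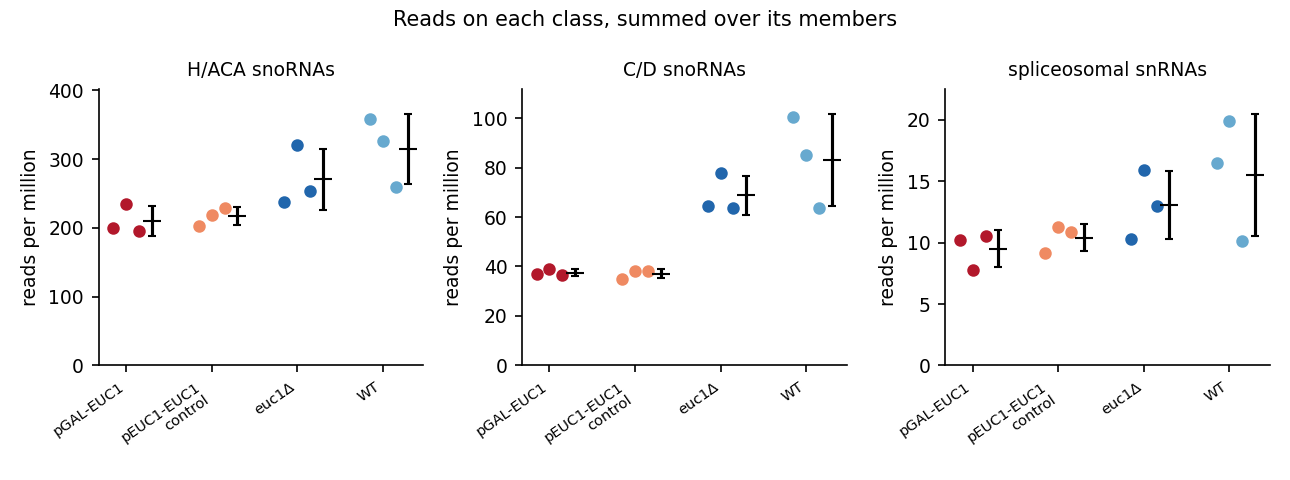
RPM summed over the H/ACA, C/D and snRNA members, with 1 point per sample and the mean with SD beside each group of 3. The C/D sums lie between 34.9 and 39.02 in the 6 galactose samples and between 63.5 and 101 in the 6 glucose samples.

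The first comparison asked whether raised Euc1 changed these RNAs. Overexpression was followed by few called differences: of the 73 members that passed the filter of a mean of 1 TPM, 3 had an adjusted p under 0.1 by limma on log2(TPM + 1) with Benjamini-Hochberg adjustment over all 6332 genes tested, 2 lower and 1 higher, where 20.4% of all genes tested were called, 4.42% lower and 16.0% higher. All 3 were C/D guides. The members' median log2 fold change was 0.04 and that of all genes 0.08. None of the 29 H/ACA members was called by limma or by voom on the reads recovered from TPM. By limma 1 of them had an unadjusted p under 0.05, where 30.9% of all genes tested did.

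The 3 called genes are shown for their boxes and their length, which limits their reads. The sequences are from RefSeq R64, 5′ to 3′, with the C box and the D box in capitals; snR87 lies at chrXI:431030-431138, snR128 at chrX:139566-139691 and snR61 at chrXII:794486-794575, all on the minus strand.
snR87: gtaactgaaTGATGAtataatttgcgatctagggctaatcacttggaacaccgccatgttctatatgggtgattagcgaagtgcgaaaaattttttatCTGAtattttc
snR128: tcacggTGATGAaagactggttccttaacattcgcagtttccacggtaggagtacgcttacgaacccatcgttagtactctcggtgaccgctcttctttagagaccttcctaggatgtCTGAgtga
snR61: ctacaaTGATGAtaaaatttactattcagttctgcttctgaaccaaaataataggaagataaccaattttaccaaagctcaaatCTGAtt
snR87, a guide for methylation of the small subunit RNA, had 29.3, 27.2 and 26.5 TPM in pGAL-EUC1, against 48.3, 36.1 and 38.2 TPM in the pEUC1-EUC1 control. All 3 pGAL-EUC1 values lay below the control values. It fell by 0.54 on the log2 scale (SE 0.10, limma adjusted p = 0.026). In reads this was 25 against 30, a ratio of RPM of 0.69 with an exact 95% counting interval of 0.39 to 1.21.

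U14 (snR128), which guides methylation of 18S ribosomal RNA and is needed for its release from the precursor, had 19.5, 14.4 and 22.9 TPM in pGAL-EUC1, against 29.2, 32.7 and 25.2 TPM in the pEUC1-EUC1 control. The groups did not overlap. It fell by 0.61 on the log2 scale (SE 0.16, limma adjusted p = 0.054), on 28 reads against 36. The ratio of RPM was 0.64, with a counting interval of 0.38 to 1.08. snR61, a guide for the large subunit, had 10.9, 25.3 and 14.1 TPM in pGAL-EUC1, against 0, 0 and 12.9 TPM in the pEUC1-EUC1 control. These are 1, 2 and 1 reads against 0, 0 and 1 read, and the groups overlapped. Its log2 fold change was 2.80 (SE 0.95, limma adjusted p = 0.097), with a ratio of RPM of 3.29 and an interval of 0.33 to 162.

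Neither voom nor a single limma fit over all 12 samples called any of the 3. At an unadjusted p under 0.05 voom gave 3 of 73 members, where 1931 of 5855 genes were under it. The single fit gave 2 of 73, where 1009 of 6332 genes were under it. The call for snR128 was lost without pGAL-EUC1 replicate 1 (adjusted p = 0.137), without control replicate 1 (0.110) and without control replicate 2 (0.140), that for snR61 was lost without any of the 3 pGAL-EUC1 samples or control replicates 1 and 2 (0.183 to 0.223), and 5 members were called without pGAL-EUC1 replicate 3.

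**Figure D3:**
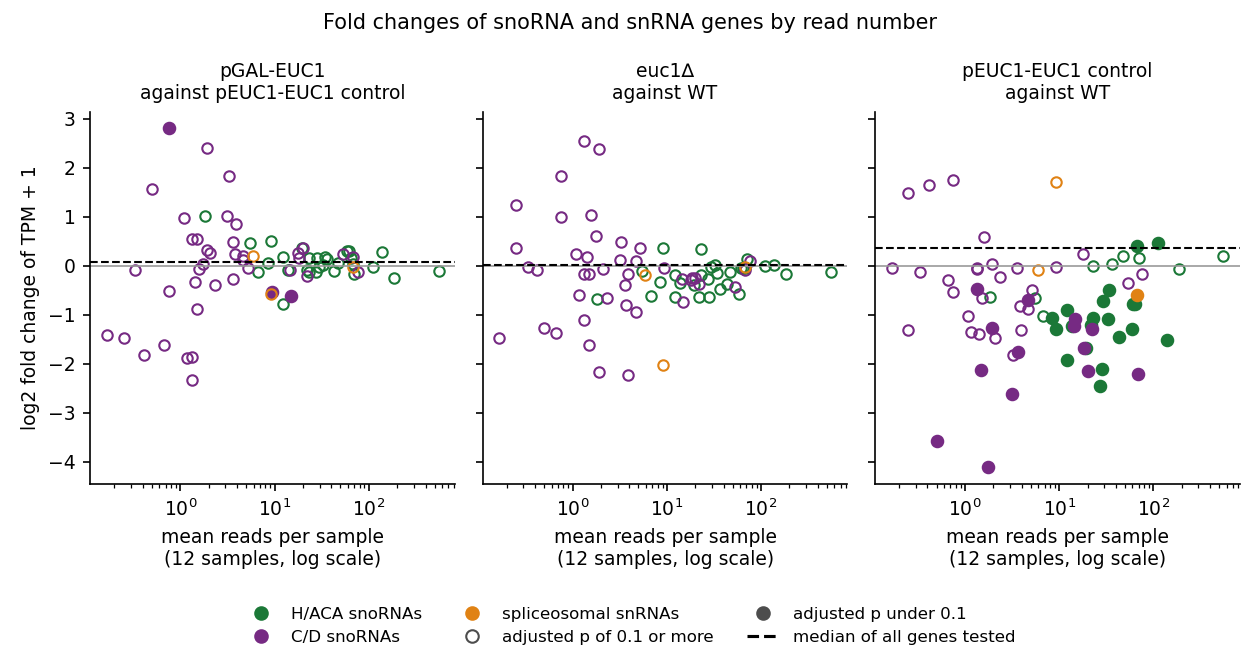
Log2 fold change of TPM + 1 against mean reads per sample (log scale) for each tested member, in pGAL-EUC1 against the pEUC1-EUC1 control (73 genes), euc1∆ against WT (74) and the pEUC1-EUC1 control against WT (74); filled points have an adjusted p under 0.1 and the dashed line is the median of all genes tested. The widest fold changes on both sides belong to members with few reads, and the filled points number 3, 0 and 35.

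The widest fold changes that missed the threshold after overexpression came from members with few reads, all but snR161 of them C/D genes. The most negative were snR47 (log2 -2.33, limma adjusted p = 0.124, 2 reads against 5), snR55 (-1.89), snR71 (-1.85), snR54 (-1.82) and snR75 (-1.61). The most positive after snR61 were snR24 or U24 (2.41, adjusted p = 0.215, 10 reads against 3), snR40 (1.84), snR66 (1.57) and the H/ACA gene snR161 (1.02). The members with a mean of at least 10 reads lay between -0.61 and 0.36. Of the 4 with the most reads, snR86 had a log2 fold change of -0.11 (SE 0.06) on 2037 reads against 1849, snR44 one of -0.25 (SE 0.14) on 603 against 606, snR30 one of 0.28 (SE 0.13) on 315 against 217 and snR84 one of -0.02 (SE 0.06) on 458 against 388, none of them called. The ratio of RPM for snR44 was 0.82 with a counting interval of 0.73 to 0.92. That interval leaves out the spread between replicates, which was wider than counting allows (ratio of chi-square to degrees of freedom 3.65). The groups overlapped in TPM. The H/ACA gene closest to the threshold was snR83 (0.31, SE 0.11, limma adjusted p = 0.102).

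The second comparison asked whether loss of EUC1 changed these RNAs. No member was called in euc1∆ against WT: 0 of 74 had an adjusted p under 0.1 by limma, where 0.0322% of the 6217 genes tested were called (2 genes, EUC1 being 1 of them), and voom called 0. At an unadjusted p under 0.05 limma gave 11 of 74 members, where 7.54% of all genes were under it. By voom 6 of 74 members were under it, where 646 of 5772 genes were. Values lay more often below than above 0: 54 of 74 members had a negative log2 fold change, with a median of -0.17, against 3001 of 6217 negative and a median of 0.01 for all genes. Among the H/ACA genes 24 of 29 were negative. Other RNAs that are not normally polyadenylated lay lower in euc1∆ too: ribosomal RNA and its spacers summed to 276 to 380 TPM in euc1∆ and 410 to 653 TPM in WT, RPR1 had 25.7 to 29.9 TPM in euc1∆ and 33.2 to 39.1 TPM in WT, and NME1 had 18.6 to 19.9 TPM in euc1∆ and 20.7 to 27.3 TPM in WT. SCR1 and U2 (LSR1) overlapped between the groups. The part of such a shared shift in the members' values was not tested.

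The smallest p belonged to snR51, a guide for methylation of ribosomal RNA. It had 16.2, 15.2 and 18.5 TPM in euc1∆, against 25.4, 29.95 and 34.4 TPM in WT. The groups did not overlap, on 10 reads against 18, and the log2 fold change was -0.80 (SE 0.13, limma adjusted p = 0.16). snR46, a guide for pseudouridine, had 38.6, 28.8 and 33.2 TPM in euc1∆, against 65.9, 55.5 and 39.4 TPM in WT. All euc1∆ values lay below the WT values, the lowest of which was WT replicate 3, and the log2 fold change was -0.64 (limma adjusted p = 0.50).

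U14 (snR128) had 36.1, 42.5 and 33.6 TPM in euc1∆, against 82.7, 90.3 and 32.9 TPM in WT. WT replicate 3 lay below all 3 euc1∆ samples. The log2 fold change was -0.74 (limma adjusted p = 0.66), and without WT replicate 3 it was -1.19 (adjusted p = 0.039), the only call that leaving out a library made among the members in this comparison. The members' median was -0.27 without that library and -0.26 without euc1∆ replicate 2. The long U5 RNA snR7-L had -2.03 on 0 reads against 19, of which WT replicate 3 held none. Other wide values rested on few reads: snR48 had -2.18 on 2 reads against 11, snR62 -2.24 on 5 against 16, snR71 2.55 on 9 against 3 and snR24 2.39 on 7 against 3, all with an adjusted p of 0.51 or more by limma.

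The widest spread of these RNAs ran between the 2 experiments. The pEUC1-EUC1 control was therefore also set against WT, which is not a comparison of the study: strain background (W303 or DF5), medium (galactose or glucose), the EUC1 and MED11 constructs and the experiment all differ and cannot be told apart, and it shares its samples with the comparisons above. Of 74 members tested, 35 were called by limma, 33 lower and 2 higher in the control. Over all 6324 genes tested 71.1% were called, 13.3% lower and 57.8% higher. The members' median log2 fold change was -0.78, against 0.36 for all genes. When samples were rescaled by the median of ratios, which moved the median of all genes to 0.00, 43 members were lower, none was higher and the members' median was -1.15. Of all 6324 genes tested 2148 were then lower and 2204 higher.

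Both classes of guide RNA took part. Among H/ACA genes 18 of 29 were lower and 2 higher, and among C/D genes 14 of 42 were lower and none higher. Of the 3 snRNAs tested limma called U1 alone (log2 -0.60, SE 0.17, limma adjusted p = 0.016), whereas voom called 1 higher and 1 lower. Of the 35 members with a mean of at least 10 reads, 23 were lower and 2 higher. Over all 12 samples, 20 of 74 members had all 6 galactose values below all 6 glucose values (8.44% of all genes did), and snR11 and snR84 had all 6 above (53.4% of all genes did).

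The H/ACA genes snR49 and snR46, among the most lowered, and snR11, which was higher, are shown for comparison. In 14 of the 29 H/ACA genes the last ACA stands exactly 3 bases before the end, as in the textbook form of the box. The sequences are from RefSeq R64, 5′ to 3′, all on the plus strand, with the last ACA in capitals; snR49 lies at chrXIV:716120-716284, snR46 at chrVII:545370-545566 and snR11 at chrXIII:652275-652532.
snR49: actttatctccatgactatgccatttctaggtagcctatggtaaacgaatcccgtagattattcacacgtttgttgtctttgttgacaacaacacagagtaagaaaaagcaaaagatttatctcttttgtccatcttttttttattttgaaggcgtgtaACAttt
snR46: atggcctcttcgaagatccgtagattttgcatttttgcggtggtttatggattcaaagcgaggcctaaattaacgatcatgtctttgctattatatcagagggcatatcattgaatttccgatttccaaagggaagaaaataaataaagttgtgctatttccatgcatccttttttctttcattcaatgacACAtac
snR11: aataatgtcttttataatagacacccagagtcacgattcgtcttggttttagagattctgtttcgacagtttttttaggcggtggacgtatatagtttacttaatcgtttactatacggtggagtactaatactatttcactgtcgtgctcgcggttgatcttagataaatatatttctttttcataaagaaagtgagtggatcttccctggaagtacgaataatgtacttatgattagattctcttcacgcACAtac
snR49, which guides pseudouridine in both ribosomal subunits, had 13.9, 11.9 and 7.20 TPM in pGAL-EUC1 and 11.9, 13.7 and 9.90 TPM in the pEUC1-EUC1 control, and 56.8, 52.0 and 62.4 TPM in euc1∆ and 80.5, 50.8 and 80.6 TPM in WT. The galactose samples were low without exception and the glucose samples high. It fell by 2.46 on the log2 scale in the control against WT (SE 0.19, limma adjusted p = 1.08e-05), on 28 reads against 150. snR46 had 10.02, 13.98 and 14.7 TPM in pGAL-EUC1 and 13.5, 9.88 and 11.1 TPM in the control, lower than in any glucose sample, and fell by 2.11 (SE 0.19, adjusted p = 2.43e-05).

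snR11, a guide for the large subunit, had 43.5, 50.6 and 46.7 TPM in pGAL-EUC1 and 43.8, 49.3 and 43.3 TPM in the pEUC1-EUC1 control, and 36.3, 34.1 and 28.6 TPM in euc1∆ and 32.5, 39.4 and 30.4 TPM in WT. Here the galactose samples were the higher ones. Its log2 fold change was 0.41 (SE 0.11, limma adjusted p = 0.012), close to the median of all genes. snR84 showed the same order, with 27.8, 27.7 and 30.3 TPM in the control and 23.3, 17.2 and 20.98 TPM in WT (0.47, SE 0.12, adjusted p = 0.0083). After scaling by the median of ratios neither gene was called, with log2 fold changes of 0.05 for snR11 and 0.11 for snR84, and voom did not call snR11.

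**Figure D4:**
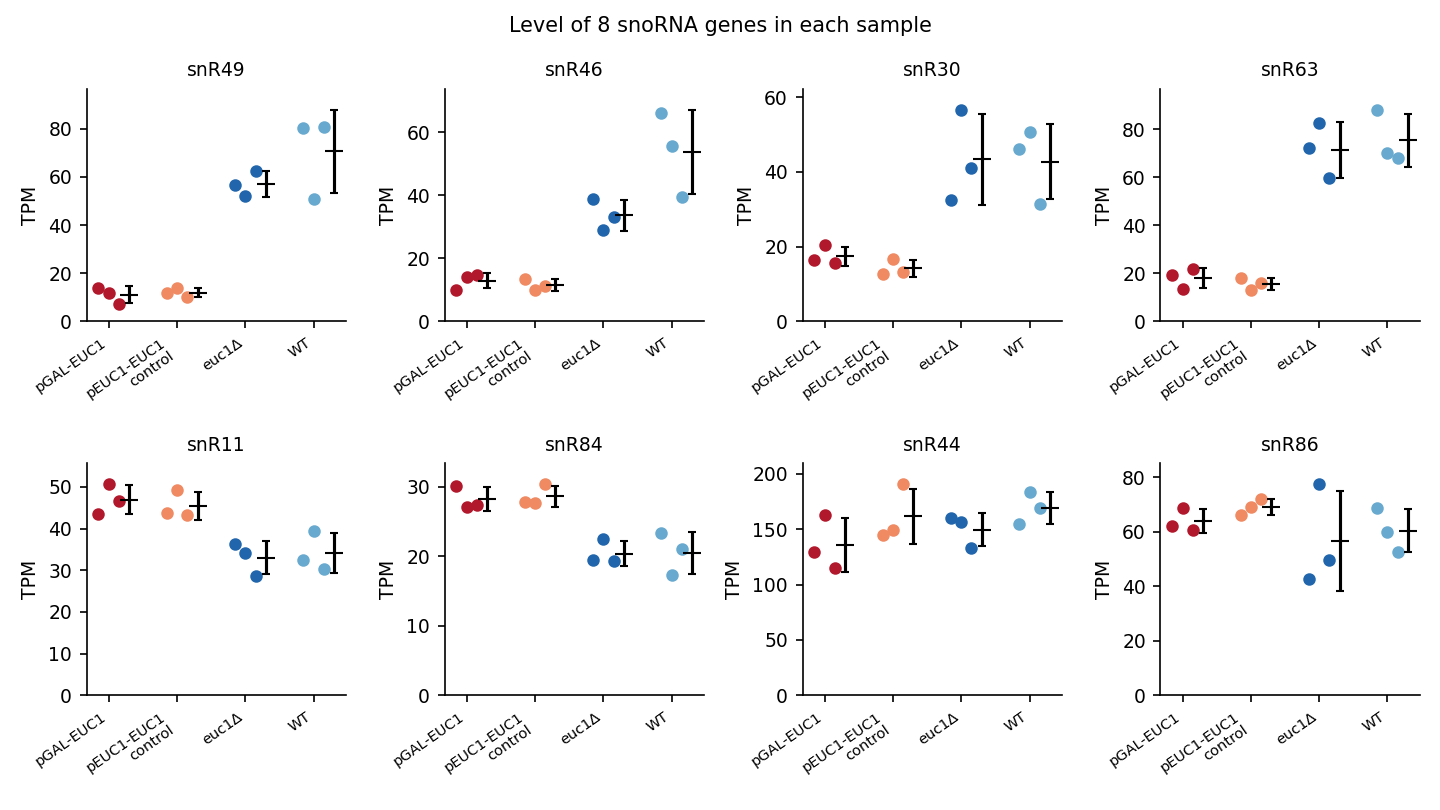
TPM of 8 snoRNA genes in each of the 12 samples, with the mean and SD of each group of 3. snR49, snR46, snR30 and snR63 lie lower in the 6 galactose samples than in the 6 glucose samples, snR11 and snR84 higher, and snR44 and snR86 overlap between all groups.

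Some members needed for cleavage of the ribosomal RNA precursor were lower, as were 33 of all 74 members tested. Of the U3 genes, snR17b was called lower and snR17a was not. snR30, essential for making 18S ribosomal RNA, had 16.3, 20.3 and 15.6 TPM in pGAL-EUC1 and 12.53, 16.7 and 13.3 TPM in the pEUC1-EUC1 control, and 32.4, 56.6 and 41.0 TPM in euc1∆ and 46.2, 50.6 and 31.4 TPM in WT. The galactose and glucose samples did not overlap, and it fell by 1.51 on the log2 scale (SE 0.18, limma adjusted p = 0.000152). snR10, which also guides a pseudouridine, fell by 1.45 (SE 0.14, adjusted p = 3.28e-05); it overlaps YGL088W on the same strand, and the kit does not mark strand, so reads of overlapping genes cannot be assigned with certainty. U14 fell by 1.09 (adjusted p = 0.021).

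Among guides for modification, snR63 had the smallest p. This C/D guide had 19.0, 13.4 and 21.7 TPM in pGAL-EUC1 and 17.8, 13.1 and 15.7 TPM in the pEUC1-EUC1 control, and 72.3, 82.8 and 59.5 TPM in euc1∆ and 88.0, 70.2 and 67.9 TPM in WT. The 2 sets of 6 samples were far apart, and it fell by 2.21 on the log2 scale (SE 0.14, limma adjusted p = 2.98e-06) on 76 reads against 332. snR45, like snR4 a guide for acetylation by Kre33, fell by 1.68, whereas snR4 had a log2 fold change of -0.17 (adjusted p = 0.375). The H/ACA guides snR32 and snR8 fell by 1.93 and 1.67. Several of the widest falls again had few reads. snR57 had a log2 fold change of -4.11 on 1 read against 8 and snR66 one of -3.58 on 0 against 2. snR60 had -2.61 on 3 against 14 and snR64 -2.12 on 3 against 8. Where a group was at 0, the size of the fold change depended on the 1 TPM added before the log. The most positive members were snR77 (1.74, 3 reads against 1) and the snRNA snR7-L (1.70, 54 reads against 19), neither called by limma. For snR7-L the ratio of RPM was 2.21, with a counting interval of 1.29 to 3.95. That interval leaves out the spread between replicates, which was wider than counting allows (ratio of chi-square to degrees of freedom 5.88). The values of the control and WT overlapped.

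Some well-read members did not pass the test. snR44 had a log2 fold change of -0.07 (SE 0.11), snR86 of 0.20 (SE 0.10), snR33 of 0.15 (SE 0.19), snR3 of 0.04 (SE 0.17) and snR9 of 0.20 (SE 0.17), with adjusted p between 0.122 and 0.860 by limma. After scaling by the median of ratios the positive ones turned negative, to -0.17 for snR86, -0.22 for snR33, -0.33 for snR3 and -0.17 for snR9. Still none of these was called. snR5, on 69 reads against 58, went from 0.003 to -0.35 and was called after that scaling (limma adjusted p = 0.036). Calls for members with few reads were lost in a single fit over 12 samples, for snR38 (16 reads in all, adjusted p = 0.63), snR64 (18 reads, 0.139), snR66 (6 reads, 0.119) and snR76 (56 reads, 0.2), and also without WT replicate 1 (0.268 for snR38, 0.117 for snR64, 0.14 for snR66 and 0.141 for snR76). Without WT replicate 2 they were lost for snR38 (0.134), snR66 (0.12) and snR76 (0.17), without control replicate 1 for snR76 (0.102), without control replicate 2 for snR38 (0.233) and without control replicate 3 for snR38 (0.251) and snR76 (0.183). For better-read genes, snR190 lost its call without WT replicate 1 (adjusted p = 0.103) or WT replicate 2 (0.135) and snR42 without either of these (0.113, 0.164) or control replicate 1 (0.195) or 3 (0.121).

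Promoters are shown for snR30 and snR46 because both were lower in the control against WT and both carry the motif of Tbf1, a factor that binds upstream of many yeast snoRNA genes. The windows run from 250 bases before to 50 bases after the start of the gene and come from RefSeq R64, 5′ to 3′ on the plus strand, with the motif in capitals; that of snR30 is chrXII:198534-198833 and that of snR46 is chrVII:545120-545419.
snR30 promoter: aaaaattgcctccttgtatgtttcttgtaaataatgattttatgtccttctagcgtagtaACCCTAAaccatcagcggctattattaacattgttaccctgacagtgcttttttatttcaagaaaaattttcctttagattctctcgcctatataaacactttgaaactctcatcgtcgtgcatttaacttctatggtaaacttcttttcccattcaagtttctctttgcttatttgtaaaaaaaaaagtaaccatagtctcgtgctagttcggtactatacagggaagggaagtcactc
snR46 promoter: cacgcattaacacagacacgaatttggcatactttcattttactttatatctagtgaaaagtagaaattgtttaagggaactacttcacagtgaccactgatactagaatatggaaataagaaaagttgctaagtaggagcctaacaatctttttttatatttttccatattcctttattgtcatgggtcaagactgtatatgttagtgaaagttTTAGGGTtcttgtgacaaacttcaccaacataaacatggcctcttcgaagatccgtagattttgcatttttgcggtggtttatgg
The Tbf1 motif ACCCTAA, sought on both strands, was in 6 of 80 members' windows (7.5%) and in 2.12% of 6412 genes of all kinds. The motif of Reb1, TTACCCG, was in 9 of 80 (11.3%) and in 6.91% of all genes. Of the 33 members lower in the control against WT, 3 had the Tbf1 motif and 8 the Reb1 motif, and of the 41 other tested members 3 had the Tbf1 motif and 1 the Reb1 motif. In the 100 bases downstream, read on the gene strand, TCTT, the core bound by the termination factor Nab3, was in 68 of 80 members (85%) and in 52.6% of all genes, and GTAA, bound by Nrd1, in 37 of 80 (46.3%) and in 41.6% of all genes. A match describes the letters in the window and is no evidence of binding.

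U3, which pairs with the ribosomal RNA precursor and is needed for making 18S ribosomal RNA, comes from snR17a and snR17b, and both genes carry an intron. The genes span 490 and 462 bases in R64. The values were whole within 0.1 reads in 11 of 12 samples for transcripts of 333 bases (snR17a) and 332 bases (snR17b), that is 157 and 130 bases shorter than the genes, and in 4 and 0 samples for the whole genes. The last 300 bases of each are shown because reads must be told apart there. The sequences are from RefSeq R64, 5′ to 3′, with the bases that differ or are unmatched in the pairwise alignment of the genes in capitals; the stretch of snR17a is chrXV:780297-780596 on the plus strand and that of snR17b is chrXVI:281056-281355 on the minus strand.
snR17a: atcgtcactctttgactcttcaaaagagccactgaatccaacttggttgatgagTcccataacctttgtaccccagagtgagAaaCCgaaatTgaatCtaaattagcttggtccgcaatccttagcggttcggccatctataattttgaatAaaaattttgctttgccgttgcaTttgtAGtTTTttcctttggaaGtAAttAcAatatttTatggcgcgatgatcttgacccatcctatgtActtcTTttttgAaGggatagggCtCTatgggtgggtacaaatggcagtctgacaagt
snR17b: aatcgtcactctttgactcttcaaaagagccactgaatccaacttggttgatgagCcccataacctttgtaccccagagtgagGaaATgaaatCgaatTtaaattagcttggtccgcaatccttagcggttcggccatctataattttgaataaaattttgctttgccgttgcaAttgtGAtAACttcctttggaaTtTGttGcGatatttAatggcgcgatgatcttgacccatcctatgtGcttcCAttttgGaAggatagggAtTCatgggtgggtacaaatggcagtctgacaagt
In these stretches 27 bases of snR17a and 26 of snR17b are in capitals, and the longest stretch that the whole genes share without a difference is 77 bases, which is shorter than the 84 bases placed by the TPM steps but longer than the 75 bases of the methods. snR17b had 3.97, 3.91 and 4.35 TPM in pGAL-EUC1 and 3.92, 1.88 and 3.26 TPM in the pEUC1-EUC1 control, and 15.6, 12.9 and 12.1 TPM in euc1∆ and 15.9, 18.5 and 14.7 TPM in WT. The galactose samples were all below the glucose samples, and it fell by 2.14 on the log2 scale in the control against WT (SE 0.22, limma adjusted p = 4.76e-05), on 21 reads against 102.

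snR17a had 21.6, 22.0 and 28.3 TPM in pGAL-EUC1 and 19.5, 20.3 and 20.6 TPM in the pEUC1-EUC1 control, and 17.1, 16.3 and 24.0 TPM in euc1∆ and 31.3, 29.9 and 18.4 TPM in WT. These groups overlapped. Its log2 fold change in the control against WT was -0.35 (SE 0.18, limma adjusted p = 0.131), and the difference between the 2 genes' fold changes was not tested. Without WT replicate 3 it was -0.58 (adjusted p = 0.00105), after scaling by the median of ratios it was -0.71 (0.0242), and by voom it was -0.51 (0.0693). snR17a overlaps the gene IRC13 on the same strand, and the part of reads shared with it was not tested.

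**Figure D5:**
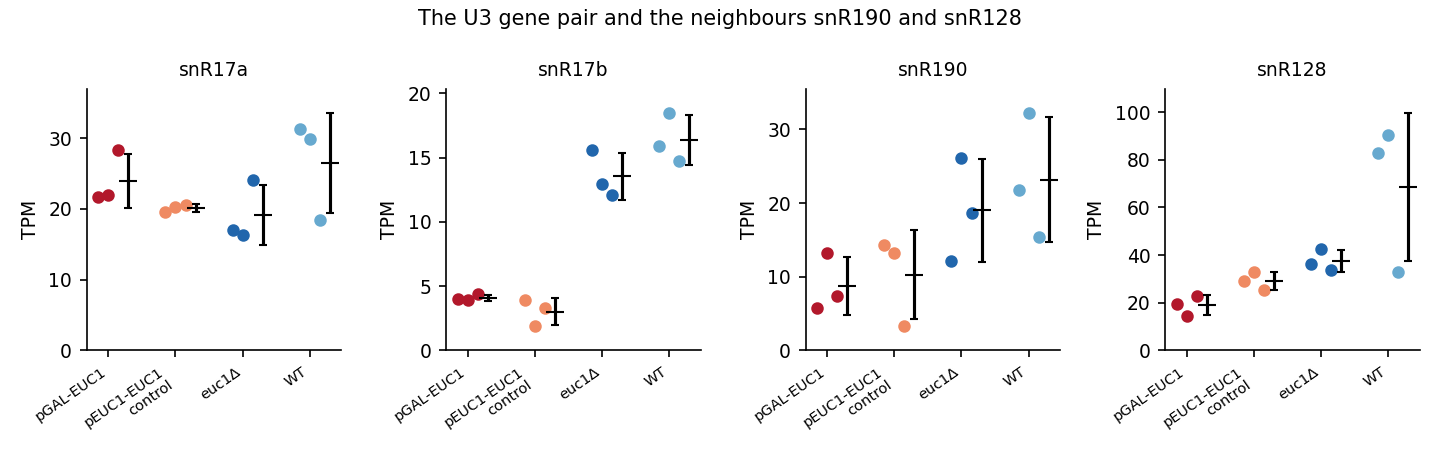
TPM of snR17a, snR17b, snR190 and snR128 in each of the 12 samples, with the mean and SD of each group of 3. snR17b lies between 1.88 and 4.35 in the galactose samples and between 12.1 and 18.5 in the glucose samples, while snR17a overlaps between them.

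Members that share a precursor were compared within their clusters. snR190 and U14 are cut from a single transcript on chromosome X. snR190 had 5.69, 13.2 and 7.36 TPM in pGAL-EUC1 and 14.3, 13.2 and 3.37 TPM in the pEUC1-EUC1 control, and 12.1, 26.2 and 18.7 TPM in euc1∆ and 21.8, 32.3 and 15.4 TPM in WT. The values of U14 did not overlap between the galactose and the glucose samples, but its highest galactose value and its lowest glucose value nearly met. Those of snR190 overlapped, and it fell by 1.24 on the log2 scale in the control against WT (limma adjusted p = 0.047). After overexpression its log2 fold change was -0.08 (SE 0.49), against -0.61 for U14; the difference was not tested. On chromosome XVI, snR41, snR70 and snR51 had log2 fold changes of -1.31 (adjusted p = 0.132), -1.28 (0.000302) and -1.76 (0.000191) in the control against WT. The 7 genes of the cluster on chromosome XIII, snR78 to snR72, had 0, 9, 56, 8, 4, 17 and 28 reads in their order along it, and snR76 alone was called (-0.69, adjusted p = 0.058).

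Intron-encoded members lie in genes for ribosomal proteins, translation elongation factors and ribosome assembly and in IMD4, an enzyme gene of GTP synthesis. Of the 8, 7 passed the filter and 2 were lower in the control against WT, where 13.3% of all genes tested were lower and 57.8% higher. These 2 were snR191 in NOG2 (log2 -0.73, limma adjusted p = 0.00087) and snR38 in TEF4 (-0.47, adjusted p = 0.096, on 3 reads against 4). The hosts NOG2 and TEF4 fell by 0.44 and 0.76 in the same comparison. For the others the values stood side by side: snR44 had -0.07 and its host RPS22B fell by 0.52, snR39 had -0.04 and RPL7A fell by 0.75, snR18 had 0.24 (-0.14 after scaling by the median of ratios) and EFB1 fell by 0.41, and snR24 had 0.04 (-0.22 after that scaling) and ASC1 fell by 0.66, none of these 4 snoRNAs passing the test. snR54 had 1.64 on 2 reads against 1, and its host IMD4 fell by 0.96. After overexpression RPL7B fell by 0.39 (adjusted p = 0.0092) and RPS22B by 0.28 (adjusted p = 0.040), IMD4 rose by 0.23 (adjusted p = 0.019), and no intron-encoded member was called by limma or by voom, with 0 and 1 of the 7 at an unadjusted p under 0.05 (TEF4 had 0.13, adjusted p = 0.088).

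Other RNAs that are not normally polyadenylated gave values beside those of the members. NME1, the RNA of RNase MRP, which cuts the ribosomal RNA precursor, had 8.0, 6.20 and 6.51 TPM in pGAL-EUC1 and 5.97, 2.56 and 5.97 TPM in the pEUC1-EUC1 control, and 18.6, 18.9 and 19.9 TPM in euc1∆ and 27.3, 20.7 and 22.1 TPM in WT. The galactose samples were all lower, and NME1 fell by 2.12 on the log2 scale in the control against WT (limma adjusted p = 0.000171). RPR1, the RNA of RNase P, had -0.12 (adjusted p = 0.387), U2 (LSR1) 0.20 (0.569) and SCR1, the RNA of the signal recognition particle, -0.63 (0.058).

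Proteins that bind, assemble or process these RNAs were read from lists chosen with earlier results known. After overexpression 7 of 10 snoRNP assembly genes were higher and none lower (median log2 0.19), where 16.0% of all genes were higher and 4.42% lower, among them HIT1 (0.36), a C/D assembly factor, SRP40 (0.26), a nucleolar chaperone, and NAF1 (0.19), an H/ACA assembly factor. Scaling by the median of ratios left 1 of these 10 higher, where 288 of all 6332 genes tested were then higher. Of the 4 C/D core protein genes NOP58 and SNU13 fell by 0.18 and 0.15, under both scalings, and none of the 4 H/ACA core genes was called by limma or by voom, with 0 at an unadjusted p under 0.05 by either. Of the other lists, 1 of 4 U3 protein genes (IMP4), 3 of 11 genes for transcription, termination and processing (POP1, RAT1, TBF1), 3 of 14 for nuclear polyadenylation and decay (RRP4, RRP6, RRP40) and 1 of 15 Sm and Lsm genes (PRP24) were higher and 1 of the last lower (LSM6); none of the higher ones was called after scaling by the median of ratios. In euc1∆ against WT no gene of these lists was called by limma or by voom. At an unadjusted p under 0.05 limma gave 1 of 4 C/D core, 1 of 10 assembly and 3 of 15 Sm and Lsm genes. Of all genes 7.54% were under it by limma. For these lists in that order voom gave 0, 1 and 5, where 646 of 5772 genes were under it.

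In the control against WT the called genes of these lists lay between log2 fold changes of -1.07 and 1.14, and their counts stand against 57.8% of all genes higher and 13.3% lower. Of the H/ACA core genes CBF5, the pseudouridine synthase, and GAR1 fell by 0.21 and 0.29, and of the C/D core genes SNU13, NOP56 and NOP58 fell by 0.39, 0.30 and 0.14. Of the 4 U3 protein genes IMP3 was higher (0.24). In the assembly list RSA1 (0.83), TAH1 (0.52), PIH1 (0.46) and RVB1 (0.22) were higher and SRP40 fell by 0.96. Of the 14 genes for nuclear polyadenylation and decay 5 were higher, among them AIR2 (0.50) of the TRAMP tailing complex and RRP6 (0.39) of the nuclear exosome, and CSL4 fell by 0.24. Of the 15 Sm and Lsm genes 8 were higher, a share near that of all genes, with LSM8 (1.14) the highest, and LSM5 and LSM6 fell by 1.07 and 0.28. Of the 11 genes for transcription, termination and processing NAB3 was higher (0.34) and LHP1, PCF11 and TGS1 fell by 0.46, 0.29 and 0.22. The protein Lsm8 is the subunit that marks the nuclear Lsm ring on U6. Scaling by the median of ratios changed these counts, and 2204 of all 6324 genes tested were then higher and 2148 lower. In the decay list none was then higher and 9 were lower, and in the Sm and Lsm list 2 were higher and 5 lower. In the assembly list 1 was higher and 7 lower, and in the U3 list none was higher and 3 were lower. In the transcription, termination and processing list none was higher and 9 were lower. The H/ACA and C/D core genes were lower in 4 of 4 and 4 of 4.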

How the data were processed

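Poly(A)-selected RNA of 12 samples (3 in each of 4 groups, from the labels) was sequenced with an unstranded kit. The authors aligned reads with STAR 2.6.0a to R64 and deposited TPM values from RSEM 1.3.0. Genes averaging 1 TPM or more in the 6 samples compared were tested two-sided by limma 3.58.1 (R 4.3.3; trended variance) on log2(TPM + 1), with Benjamini-Hochberg adjustment and calls at an adjusted p under 0.1; fold changes on this scale understate those of low genes. The test was checked on simulated data. Reads were recovered from TPM steps (84.6% to 92.5% of low open reading frame values whole within 0.1 reads), and exact 95% intervals cover counting error only. Named genes were drawn mainly from members called in a comparison, the 5 widest fold changes each way, the 10 highest levels, intron-encoded genes and hosts, snRNAs, U3 genes, cluster members and called protein genes. Not every one of these is given. Members and lists were chosen with earlier results of these data known. Alternatives changed the pseudocount, filter, scaling, samples, variance trend or block, or used voom. Figures were drawn in matplotlib 3.10.9 (Python 3.11.15; pandas 2.3.3).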

Additional observations from a re-analysis of the deposited data

How the results depend on the processing

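The number of called members after overexpression was the least settled value: 3 as reported, 0 in a single fit over 12 samples, 0 by voom on recovered reads, and 2 to 5 when 1 sample was left out. In euc1∆ against WT it was 0 to 1 when 1 sample was left out, the 1 call being snR128 without WT replicate 3. In the control against WT it was 33 to 40, and scaling by the median of ratios moved the members' median from -0.78 to -1.15. That scaling turned the split of all genes called after overexpression from 1014 higher and 280 lower to 288 higher and 526 lower, and that of the control against WT from 3654 and 840 to 2204 and 2148. Medians without 1 sample ran from -0.27 to -0.09 (euc1∆ against WT), 0.01 to 0.09 (overexpression) and -0.95 to -0.72 (control against WT). Of the 35 called members and snR17a in the control against WT, 27 kept their side of the threshold under every alternative, and none of the members called in any comparison changed direction under any. Of the members not called, 31 of 70 after overexpression, 36 of 74 in euc1∆ against WT and 20 of 39 in the control against WT changed direction under at least 1 alternative. The cause of the other changes was not tested. Voom and the minimum of 10 recovered reads were chosen after seeing the data.

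With the replicate number as a block, 6 members were called after overexpression, 0 in euc1∆ against WT and 42 in the control against WT. Of all genes tested 1221 of 6332, 1 of 6217 and 4344 of 6324 were called, in that order. Same-numbered samples did not deviate together (correlations of -0.11 to 0.19), so the numbers were not taken as a pairing. Depth limits members with few reads: 474 of 960 values rest on at most 5 reads.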
